A study of Mus musculus with 2 samples.

Results

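Transcripts of glutathione transferases, peroxiredoxins and thioredoxin-family genes were followed in RNA sequencing libraries labelled as mouse adipose tissue. The members were all protein-coding genes whose symbol begins with Gsta, Gstk, Gstm, Gsto, Gstp, Gstt, Mgst or Prdx and a digit, or with Txn. This gave 49 genes of the 54532 in the table, of which 42 had a mean of at least 1 FPKM and are called measured. FPKM counts the fragments of a gene relative to its length and to the size of the library, so levels can be compared between genes.

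The material came from abdominal fat pads of mice aged 3 to 4 weeks. One genotype was WT, with no altered allele named, and the other carried a knock out of Trappc9, which encodes a subunit of the TRAPP complexes of vesicle transport. Each genotype had 1 library, although the study's design text speaks of 3 mice per genotype. No source used here says whether those mice were pooled or which alteration made the knockout. The titles speak of stem cells derived from adipose tissue, the design text of a collagenase digest, and the extraction label of frozen pads, so the exact preparation is uncertain.

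Glutathione transferases join the tripeptide glutathione to reactive or foreign molecules, which makes these easier to remove. Peroxiredoxins reduce hydrogen peroxide and lipid peroxides through a reactive cysteine, and most of them are returned to the reduced state by thioredoxin, which in turn draws electrons from NADPH through thioredoxin reductase. In fat, these enzymes are known for clearing the aldehydes and peroxides that arise from stored lipid, and the epididymis, the duct that lies against the gonadal fat pad, is known for its own set of secreted and cytosolic antioxidant enzymes.

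The libraries held 13705193 (WT) and 14783728 (KO) fragments, recovered from FPKM, gene length and the value of 1 fragment. With 1 library per genotype no difference has a replicate check and no p-value can be given. Each ratio carries a 95% Clopper-Pearson interval of its fragments, which covers counting error only. The gene-level value of Trappc9 was 9.94 FPKM (WT) and 12.6 FPKM (KO), so it does not check the labels. Values are given below as a pair, the library labelled WT first. The label adipose was met only in part. The 10 mature adipocyte markers summed to 68.4 and 69.1 FPKM with none at 0 in both libraries. Most of that sum was Pnpla2 (27.4 and 31.0 FPKM) and Fabp4 (25.1 and 27.0 FPKM). No other marker of the list passed the 5.82 FPKM of Cfd in WT. Adipoq, which encodes adiponectin, stood at 2.30 and 0.51 FPKM, and Lep at 0.063 and 0.083 FPKM. The 15 markers of epididymal epithelium summed to 22227 and 30442.5 FPKM, and the 12 markers of adipose progenitors to 1390 and 1032 FPKM. In such mixed material, fewer cells of a type and less RNA per cell cannot be told apart, and the part of these cell types in the results below was not tested.

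The scaling between libraries decides the direction of small differences. When the deposited FPKM were rescaled so that both libraries had the same sum (TPM scaling), the median log2 ratio of all 13084 measured protein-coding genes moved from 0.02 to −0.15, a shift of −0.17. Leaving the 100 most abundant genes out of that sum gave −0.07. Log2 ratios here are log2((KO + 1)/(WT + 1)) where the added 1 FPKM is a pseudocount that shrinks the differences of low genes. A member is named higher or lower below only where its counting interval lay on one side of no change under all 3 scalings. TPM scaling is the strictest of these for higher genes and the deposited scaling for lower ones.

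Several members are near copies of each other, and the first coding bases of the pi class genes Gstp1 (chr19:4035407-4037921, minus strand, mm10) and Gstp2 (chr19:4040285-4042236, minus strand) are printed because they show what separates a gene at around 100 FPKM from a neighbour under 1 FPKM. The coding sequences, read from GENCODE M21 transcripts (GRCm38), are both 630 bases long and differ at 12 positions. Coding bases 1 to 60 hold 6 of the 12, shown in capitals.
Gstp1: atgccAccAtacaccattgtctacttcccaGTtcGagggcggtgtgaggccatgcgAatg
Gstp2: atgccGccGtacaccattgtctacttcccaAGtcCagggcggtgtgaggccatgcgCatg
Gstp1 stood at 89.5 and 114 FPKM, whereas Gstp2 had 5 fragments in each library (0.46 and 0.45 FPKM). Of all stretches of 50 bases in Gstp1 transcripts, 33.7% also occur in transcripts of another gene, and 54.3% of those of Gstp2 do, so the split between them depends on how the authors' counting treated such reads.

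The second pair is Prdx6 (chr1:161240112-161251219, minus strand, mm10) and its near copy Prdx6b (chr2:80292472-80295356, plus strand), shown because their ratios went opposite ways. Both coding sequences have 672 bases and differ at 48 of them. In coding bases 319 to 378, the 60-base stretch with the most differences, 8 bases differ and are in capitals.
Prdx6: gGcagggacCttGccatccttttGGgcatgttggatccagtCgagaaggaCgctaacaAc
Prdx6b: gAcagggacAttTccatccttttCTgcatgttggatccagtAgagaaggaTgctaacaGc
Only 0.16% of the 50-base stretches of Prdx6 and 0.25% of those of Prdx6b occur in another gene, so reads of this pair can be told apart over nearly all of their length.

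Levels differed far more between members than between libraries. The 49 members together took 0.519% and 0.525% of the fragments. Their summed FPKM was 2320 and 2517, of which the 24 glutathione transferases held 60.5% and 61.5%, and the mu class alone 49.3% and 48.5%. The median measured member stood at 16.3 and 21.0 FPKM, above the 7.24 and 7.44 FPKM of all measured protein-coding genes. Ranked among these 13084 genes, Gstm7 was in position 68 (WT) and 76 (KO).

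**Figure D1:**
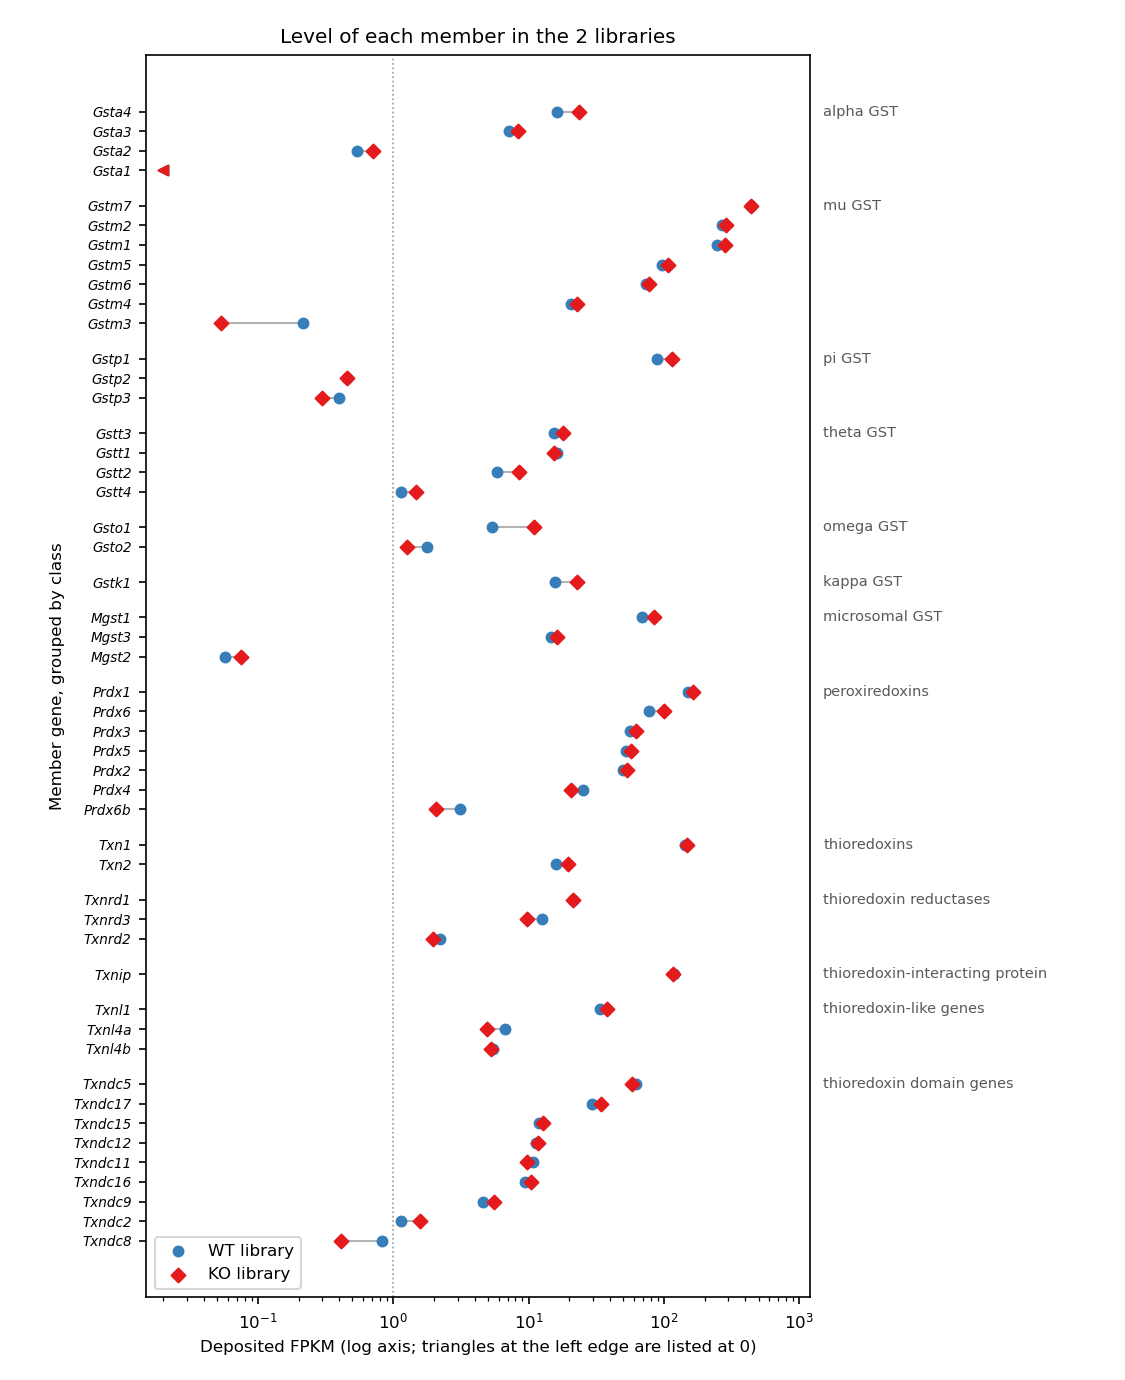
Deposited FPKM of each of the 49 members (log axis) in the library labelled WT (blue circles) and the library labelled KO (red diamonds), grouped by class, with a dotted line at 1 FPKM. Gstm7 is the most abundant member at 438 and 442 FPKM, and Gsta1 is listed at 0 in both libraries.

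No measured member reached a 2-fold difference (log2 ratio of 1) in either direction, where 0.948% of all measured protein-coding genes did so upwards and 0.29% downwards. Taken as deposited, 21 members had a counting interval above no change and 6 below it. The same held for 24.6% (higher) and 17.6% (lower) of all 13084 genes. Under all 3 scalings, 6 members were higher, against 7.88% of all genes, and 6 were lower, against 17.6% of all genes. The members higher in this sense were Gsto1, Gstk1, Gsta4, Gstt2, Prdx6 and Gstp1, and those lower were Prdx6b, Txnl4a, Txnrd3, Prdx4, Txndc11 and Txndc5. The median log2 ratio of the 42 measured members was 0.13 as deposited, beside 0.02 for all genes, and −0.07 after TPM scaling, beside −0.15 for all genes. Above the median of all genes stood 29 members, and 13 stood below it. These counts were the same under each of the 3 scalings. That follows nearly by construction, because a scaling multiplies all ratios by 1 number.

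**Figure D2:**
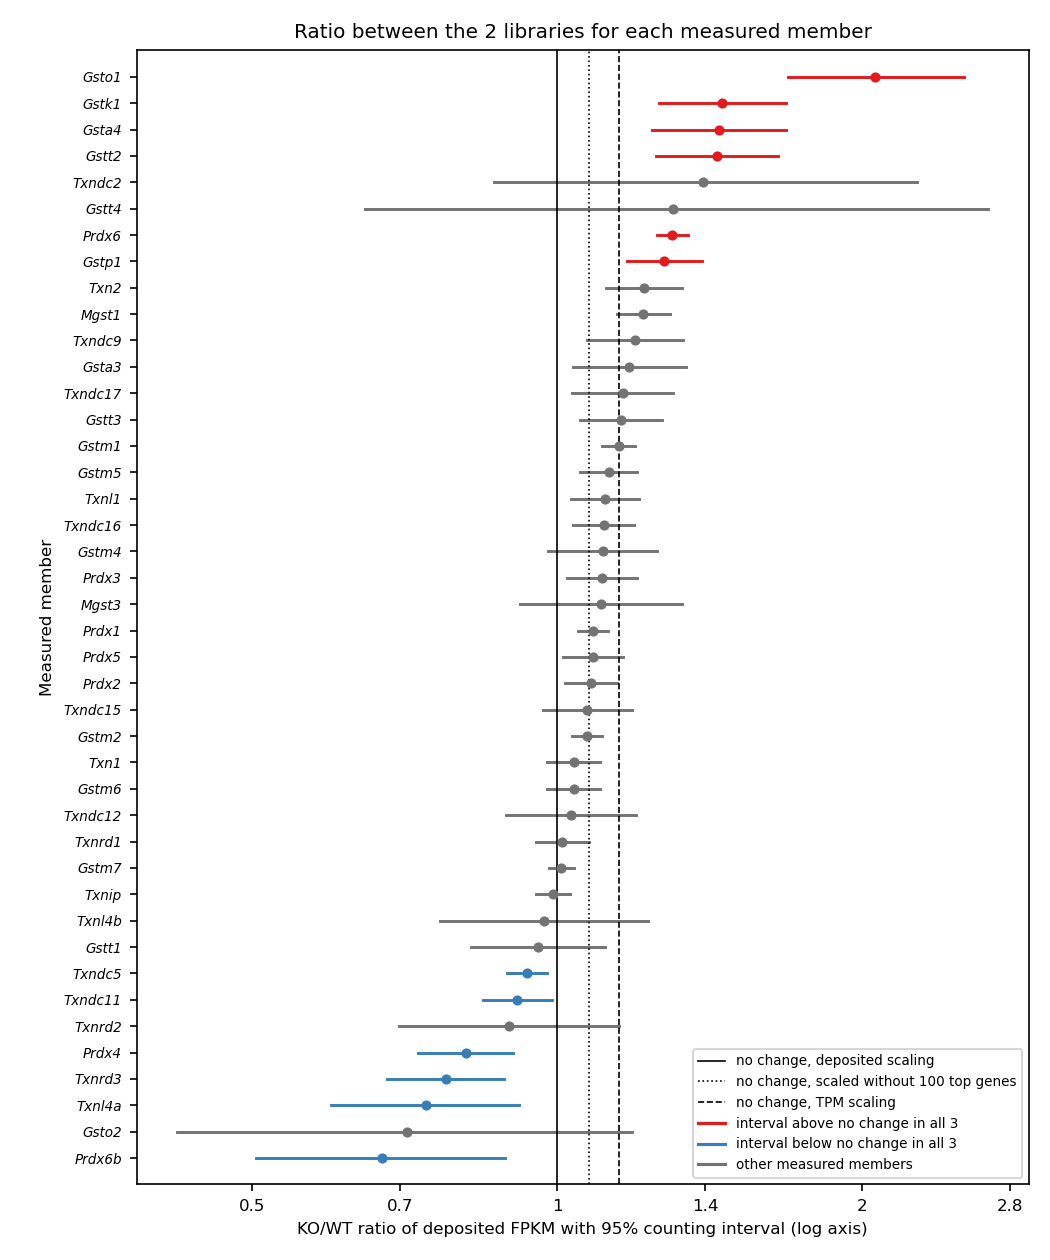
KO/WT ratio of deposited FPKM for the 42 measured members (log axis), with bars for the 95% counting interval and vertical lines where no change lies under each of 3 scalings. The red members (6) lie above all 3 lines and the blue members (6) below all 3, and Gsto1 has the highest ratio at 2.06.

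The mu class, cytosolic enzymes encoded by 7 genes within 149 kb of chromosome 3 (107895821 to 108044894), supplied most transferase transcripts. Gstm7 (ENSMUSG00000004035) stood at 438 and 442 FPKM (9944 and 10133 fragments), a ratio of 1.01 (counting interval 0.981 to 1.04). Gstm2 followed at 270 and 288 FPKM (6410 and 6923 fragments), with a ratio of 1.07 (1.03 to 1.11) that became 0.930 after TPM scaling. Gstm1, at 246 and 282 FPKM, had a ratio of 1.15 (1.11 to 1.19) as deposited and 0.999 after TPM scaling. The high levels of these genes give them narrow counting intervals, so the scaling limits what can be said of them more than the depth does. The lack of a replicate library limits it as well.

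The other mu genes covered the whole range of levels within the same cluster. Gstm5, a form known to be abundant in testis, stood at 96.1 and 108 FPKM, Gstm6 at 74.3 and 77.1 FPKM and Gstm4 at 20.4 and 22.6 FPKM. Of the exon bases of Gstm5, 13.9% overlap an antisense gene, 4933431E20Rik. Gstm3 lies between Gstm6 and Gstm2 and had only 4 and 1 fragments, so a difference in it was not detectable at this depth. Of the 50-base stretches of Gstm3, 28.8% occur in another gene, and of those of Gstm1, 18.9% do. The mu class sum was 1145 and 1221 FPKM, a ratio of 1.07 (approximate counting interval 1.05 to 1.08) that fell on the other side of no change, at 0.927, after TPM scaling.

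**Figure D3:**
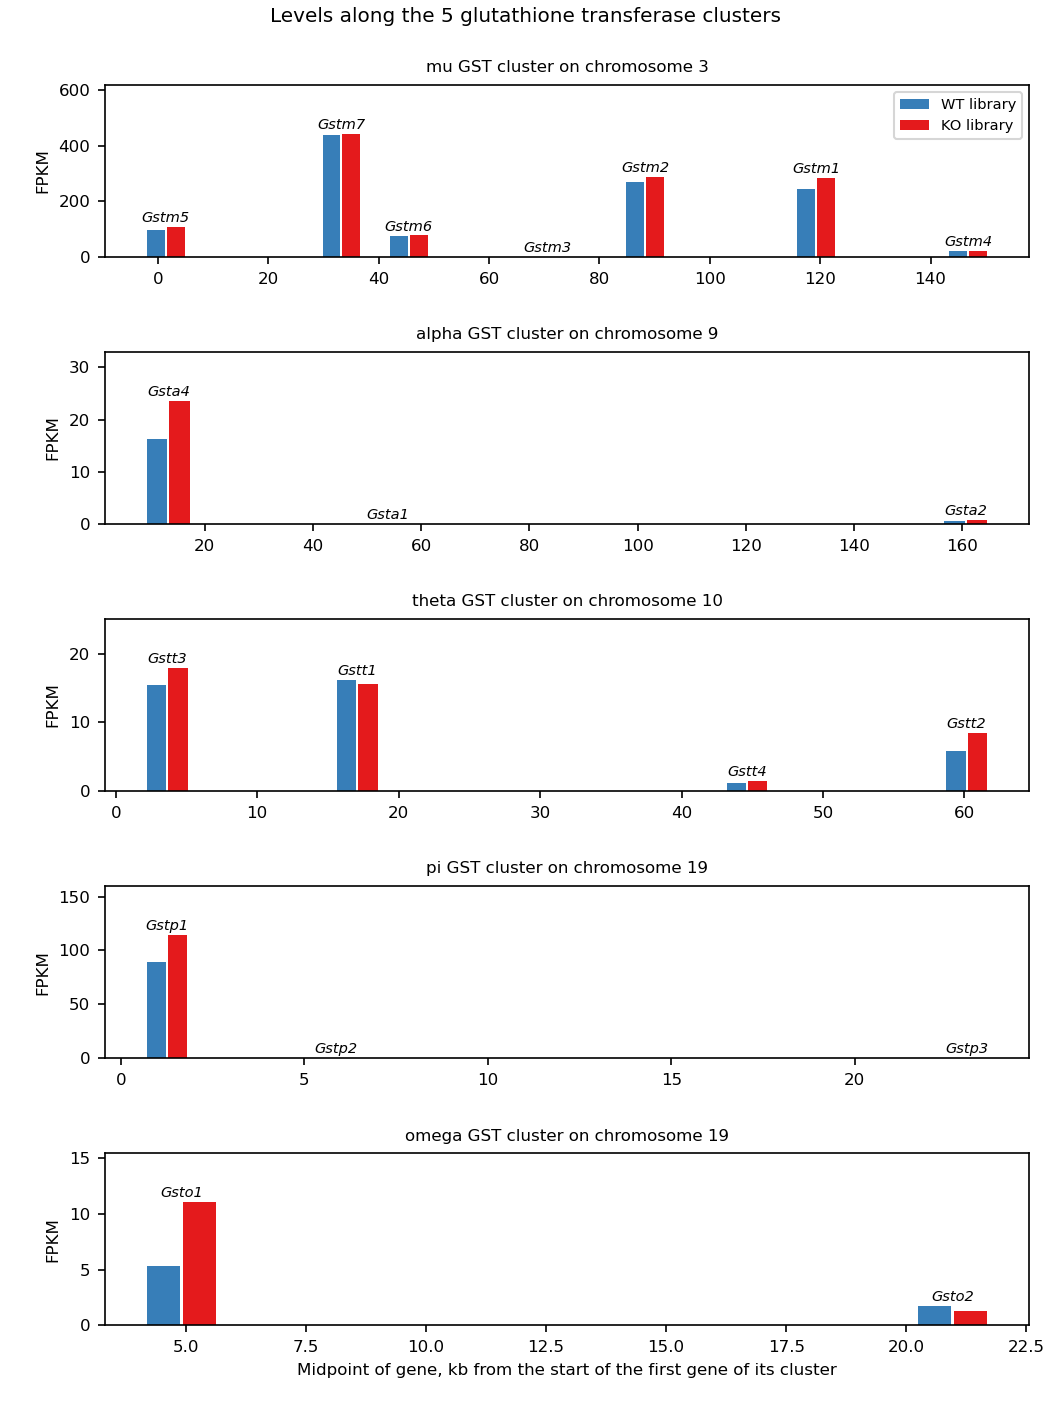
Deposited FPKM (bars from 0) of the members in the mu, alpha, theta, pi and omega clusters against the distance of each gene's midpoint from the start of its cluster in kb, with the library labelled WT in blue and that labelled KO in red. Each cluster holds members at very different levels, from Gstm7 at 438 and 442 FPKM to Gstm3 at 0.22 and 0.053 FPKM in the mu cluster.

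The highest ratio of all measured members belonged to the omega class. Gsto1 (ENSMUSG00000025068, chromosome 19, 47854970 to 47864790), which encodes an enzyme with thiol transferase and dehydroascorbate reductase activity, stood at 5.35 and 11.0 FPKM (149 and 310 fragments). The ratio was 2.06 (counting interval 1.69 to 2.52), and 1.79 after TPM scaling. Its log2 ratio with the pseudocount was 0.92, short of the 2-fold rule, which it met with a pseudocount of 0.1 FPKM. Gsto2, the next gene on the same strand, had 39 and 28 fragments (1.78 and 1.26 FPKM), a ratio of 0.711 whose interval of 0.421 to 1.19 held no change. The intervals of these neighbours did not overlap, and a comparison between genes does not depend on the scaling. None of the 50-base stretches of either gene occurs in another gene.

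Of the alpha class, Gsta4 (ENSMUSG00000032348, chromosome 9, 78182774 to 78209349), known for conjugating the lipid peroxidation product hydroxynonenal, stood at 16.3 and 23.6 FPKM (293 and 427 fragments). Its ratio was 1.44 (1.24 to 1.68), and 1.25 after TPM scaling. Gsta3, on chromosome 1, was at 7.12 and 8.38 FPKM (438 and 521 fragments), a ratio of 1.18 (1.04 to 1.34) that was 1.02 after TPM scaling. The liver-type genes near Gsta4 were almost silent. Gsta2 had 9 and 12 fragments, and Gsta1 had 0 in both libraries, which allows up to 0.222 FPKM (WT) and 0.219 FPKM (KO). Of the 50-base stretches of Gsta1, 90.5% occur in another gene, so its reads could have been lost or moved in counting. Markers of hepatocytes, a cell type rich in alpha class transferases, summed to 9.77 and 6.38 FPKM over 8 genes.

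The single kappa gene, Gstk1 (ENSMUSG00000029864, chromosome 6, 42245935 to 42250447), encodes a transferase of mitochondria and peroxisomes. It stood at 15.6 FPKM (324 fragments) and 22.7 FPKM (476 fragments), a ratio of 1.45 (1.26 to 1.68), and 1.26 after TPM scaling. Adipocytes are known to express Gstk1, whose product has been linked to assembly of adiponectin. As deposited, 2 of the 7 measured mature adipocyte markers had a counting interval above no change (Pnpla2 and Fabp4) and 2 below (Adipoq and Plin1). Their median log2 ratio was 0.04, and after TPM scaling 0 were above and 3 below. Of all 13084 genes, 24.6% were above and 17.6% below as deposited, and 7.88% and 48.4% after TPM scaling. Of the 15 epididymal markers, 14 were above and 0 below as deposited, and 11 and 2 after TPM scaling. The part of either cell type in the value of Gstk1 was not tested.

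The pi class rested on Gstp1 (ENSMUSG00000060803), the gene that held 99.1% and 99.3% of the class FPKM. Its 89.5 and 114 FPKM came from 960 and 1236 fragments, with a ratio of 1.27 (1.17 to 1.39), and 1.11 after TPM scaling. Gstp2, shown above with its sequence, had a ratio of 0.990 with an interval of 0.228 to 4.30, and Gstp3 had 4 and 3 fragments, so neither says whether the class moved together.

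Theta class genes, 4 in 63.3 kb of chromosome 10, did not share a ratio. Gstt2 (ENSMUSG00000033318) was at 5.88 and 8.44 FPKM (346 and 502 fragments), a ratio of 1.44 (1.25 to 1.65), and 1.25 after TPM scaling. Gstt3, at 15.5 and 17.9 FPKM (843 and 983 fragments), had 1.15 (1.05 to 1.27), which became 1.00 after TPM scaling. Gstt1 was at 16.2 and 15.5 FPKM (351 and 339 fragments), a ratio of 0.956 (0.821 to 1.11). The intervals of Gstt1 and Gstt2 did not overlap, so 2 genes of 1 cluster differed in ratio beyond counting error. Gstt4 rested on 16 and 21 fragments. Of the exon bases of Gstt3, 13.6% overlap the protein-coding model Gm20441 on the same strand.

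Microsomal transferases are membrane proteins unrelated in fold to the cytosolic classes. Mgst1, the form of the endoplasmic reticulum and outer mitochondrial membrane, was at 69.2 and 84.1 FPKM (1974 and 2423 fragments). Its ratio of 1.22 (1.14 to 1.29) became 1.06 after TPM scaling, where the interval held no change. Mgst3 was at 14.6 and 16.1 FPKM (227 and 253 fragments), a ratio of 1.10 (0.919 to 1.33). Mgst2 had 3 and 4 fragments.

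**Figure D4:**
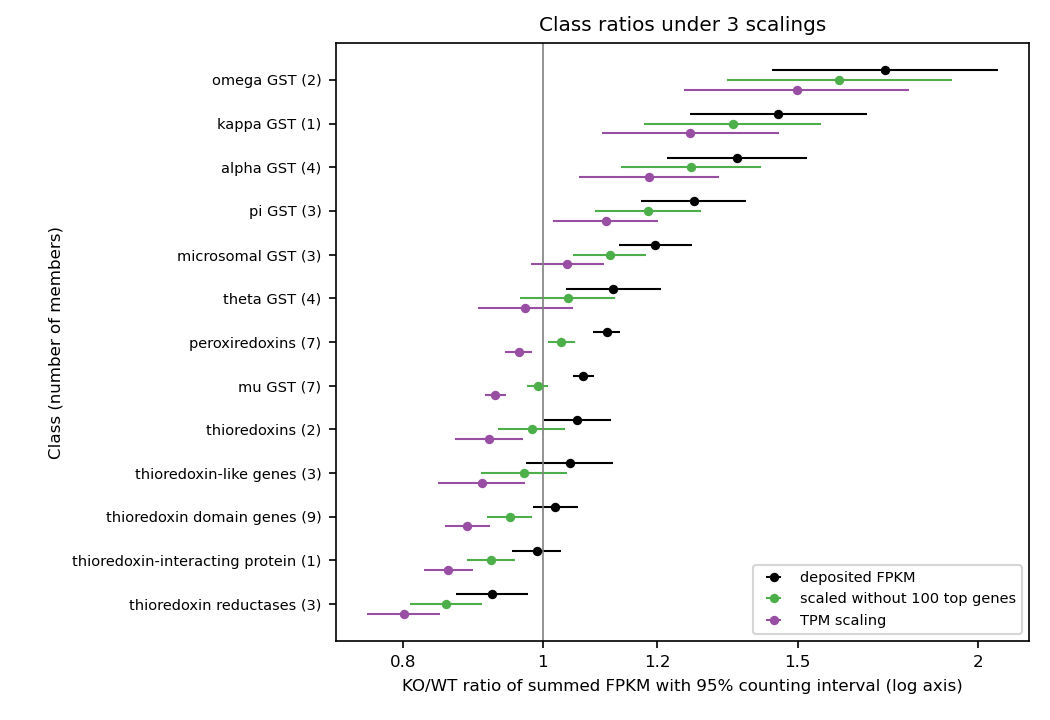
KO/WT ratio of the summed FPKM of each class (log axis), with approximate 95% counting intervals, under the deposited, TPM and reduced-sum scalings; numbers in brackets count the members. The intervals of the omega, kappa, alpha and pi classes lie above 1 under all 3 scalings, and that of thioredoxin reductases lies below 1. Among the classes whose ratio changes side with TPM scaling are mu transferases (1.07 to 0.927) and peroxiredoxins (1.11 to 0.962).

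Ordered by the ratio of summed FPKM, the classes ran from omega (7.12 and 12.3 FPKM, ratio 1.72) to thioredoxin reductases (36.1 and 33.3 FPKM, ratio 0.922). This order is the same under every scaling, because a scaling multiplies all ratios by 1 number. The omega, kappa (1.45), alpha (1.36) and pi (1.27) sums had intervals above no change under all 3 scalings, and the reductase sum had one below. In the omega and pi classes this was the value of 1 gene. Without Gsto1 the omega ratio was 0.711. Without Gstp1 the pi ratio was 0.875, from Gstp2 and Gstp3 with at most 5 fragments each in either library. Among the 3 reductases, only Txnrd3 was lower under all 3 scalings. Without Gsta4 the alpha ratio was 1.19 as deposited. Gsta3, the other measured alpha gene, was at 1.02 after TPM scaling, where its interval held no change. The classes with the largest sums were mu transferases at 1.07, peroxiredoxins at 1.11 (414 and 459 FPKM) and thioredoxins at 1.06 (159 and 168 FPKM). All of these were below 1 after TPM scaling. A class with a smaller sum could lie as near to 1, such as thioredoxin-like genes at 1.04 (46.1 and 48.1 FPKM). The approximate intervals of mu transferases (1.05 to 1.08) and of alpha transferases (1.22 to 1.52) did not overlap.

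All 7 peroxiredoxins were measured. Prdx1 (ENSMUSG00000028691), the main cytosolic form, led with 150 and 163 FPKM (6473 and 7090 fragments), a ratio of 1.08 (1.05 to 1.12). Prdx2, also cytosolic and known from red cells, was at 49.5 and 53.5 FPKM. Prdx3, the mitochondrial form, was at 56.1 and 62.0 FPKM, and Prdx5, found in several compartments, at 52.7 and 57.1 FPKM. These 4 genes had ratios from 1.08 to 1.11 as deposited and from 0.939 to 0.961 after TPM scaling, so their direction depends on the scaling. They differed little from one another. Of the exon bases of Prdx5, 19.1% overlap Trmt112 on the opposite strand, 11.5% of those of Prdx2 overlap Rnaseh2a or Junb, and no source used here says whether counting used strand, so the reads of these genes cannot be told apart there.

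The other 3 peroxiredoxins departed from that group. Prdx6 (ENSMUSG00000026701), which uses a single reactive cysteine and glutathione and also reduces phospholipid peroxides, was at 77.5 FPKM (5277 fragments) and 101 FPKM (6923 fragments). Its ratio of 1.30 (1.25 to 1.35) was 1.13 after TPM scaling. Prdx6b, its near copy on chromosome 2, was at 3.11 FPKM (127 fragments) and 2.08 FPKM (86 fragments), a ratio of 0.671 (0.504 to 0.889), so the pair printed above differed in direction under all 3 scalings. Prdx4 (ENSMUSG00000025289, X chromosome, 155323918 to 155340754), the form of the endoplasmic reticulum, was at 25.4 FPKM (757 fragments) and 20.6 FPKM (621 fragments), a ratio of 0.812 (0.729 to 0.904).

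In the thioredoxin system itself, the cytosolic carrier and its inhibitor were abundant and nearly level. Txn1 stood at 143 and 149 FPKM (2133 and 2236 fragments), a ratio of 1.04 (0.978 to 1.10). Txnip, whose product binds and inhibits thioredoxin and also limits glucose uptake, was at 118 and 117 FPKM (5224 and 5222 fragments), a ratio of 0.990 (0.952 to 1.03). Of the exon bases of Txnip, 19.4% overlap the antisense gene Gm15441. Txn2, the mitochondrial thioredoxin, was at 16.1 and 19.6 FPKM (959 and 1179 fragments), a ratio of 1.22 (1.12 to 1.33) that became 1.06 after TPM scaling.

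Of the reductases, Txnrd1 and Txnrd3 differed in ratio beyond counting error. Txnrd1, cytosolic, was at 21.2 and 21.5 FPKM (2130 and 2176 fragments), a ratio of 1.01 (0.953 to 1.07). Txnrd2, mitochondrial, was at 2.21 and 1.99 FPKM (138 and 125 fragments). Its ratio of 0.897 (0.698 to 1.15) had an interval that overlapped those of Txnrd1 and Txnrd3. Txnrd3 (ENSMUSG00000000811, chromosome 6, 89643988 to 89675529), the thioredoxin and glutathione reductase known to be enriched in testis, was at 12.6 FPKM (508 fragments) and 9.81 FPKM (398 fragments). Its ratio was 0.776 (0.679 to 0.886), and its interval did not overlap that of Txnrd1.

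Too few fragments were counted to give a direction for the other thioredoxins known from sperm. Txndc2, a thioredoxin of the sperm tail, had 32 and 45 fragments (ratio 1.39, interval 0.866 to 2.26), and Txndc8, another spermatid thioredoxin, had 8 and 4 fragments (ratio 0.495, interval 0.109 to 1.85). Both intervals held no change. Gstm5 had a ratio of 1.12 as deposited and 0.977 after TPM scaling. The 12 spermatid and sperm markers summed to 96.1 and 231 FPKM, with 10 higher and 1 lower as deposited, while the 10 spermatocyte markers summed to 25.3 and 13.8 FPKM, with 3 of the 5 measured lower and 1 higher. No marker of either list was at 0 in both libraries. Prdx6b, described above, was also listed among the members with a known testis or sperm form. The part of germ cells in the values of Txnrd3, Txndc2, Txndc8, Gstm5 and Prdx6b was not tested.

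Thioredoxin-like and thioredoxin domain genes carry the thioredoxin fold but mostly serve protein folding or other tasks. Txnl4a, a component of the spliceosome, was at 6.69 FPKM (207 fragments) and 4.96 FPKM (155 fragments), a ratio of 0.741 (0.598 to 0.918). Its relative Txnl4b was at 5.49 and 5.32 FPKM. Txnl1, a cytosolic protein bound to the proteasome, was at 33.9 and 37.9 FPKM (1230 and 1385 fragments), a ratio of 1.12 (1.03 to 1.21) that became 0.969 after TPM scaling. Of the exon bases of Txnl4a, 10.1% overlap the protein-coding model Gm16286 on the same strand.

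Among the 9 Txndc genes, Txndc5 and Txndc11 were lower under all 3 scalings. Txndc5, a protein disulfide isomerase and the most abundant of them, was at 61.9 and 57.8 FPKM (3938 and 3712 fragments), a ratio of 0.933 (0.892 to 0.976), and 11.9% of its exon bases overlap Bmp6 or Gm31834 on the opposite strand. Txndc11 was at 10.7 and 9.80 FPKM, a ratio of 0.913 (0.844 to 0.987). These differences were small beside that of Prdx4 (ratio 0.812). Txndc12 was at 11.3 and 11.7 FPKM (ratio 1.03). Txndc17, a cytosolic thioredoxin-related protein, was at 29.5 and 34.2 FPKM (553 and 648 fragments), a ratio of 1.16 (1.03 to 1.30) that became 1.01 after TPM scaling. Txndc9, Txndc15 and Txndc16 had ratios of 1.19, 1.07 and 1.11 as deposited.

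Promoters were searched for the core of the antioxidant response element, the sequence bound by NRF2, a transcription factor known to drive many transferase and thioredoxin system genes. The RefSeq windows (GRCm38.p6) run from 250 bases before to 50 after a listed start, and a gene can have several starts. The 43 members with a window had 57 windows, and all 27025 genes had 32851. A gene counted as a match if any of its windows held the core. The match in Txnrd1 comes from a start inside the gene. The core searched was TGACNNNGC on both strands. Of the 43 members with a window, 9 held it, 20.9%, beside 14.0% of the 27025 genes with a window. The 6 members without a window, Gsta4, Gstt2, Prdx6, Prdx6b, Txnl1 and Txnl4a, could not be searched. Of the members higher under all 3 scalings, Gsta4, Gstt2 and Prdx6 were thus not searched, and Gsto1, Gstk1 and Gstp1 held no match. Of those lower, Txndc5 and Txndc11 held a match, Txnrd3 and Prdx4 held none, and Prdx6b and Txnl4a were not searched. The 6 matches in transferase, peroxiredoxin and reductase genes are printed with up to 16 bases on either side, because these classes are the ones NRF2 is known for, with the core in capitals in the gene's own direction. In Prdx1, Mgst1 and Txnrd1 the core lies on the opposite strand, so its reverse complement is seen.
Gstm7 (chr3:107931719-107931759, minus strand): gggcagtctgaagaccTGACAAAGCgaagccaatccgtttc
Gstm5 (chr3:107895796-107895836, plus strand): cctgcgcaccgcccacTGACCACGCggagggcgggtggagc
Gsta3 (chr1:21240448-21240488, plus strand): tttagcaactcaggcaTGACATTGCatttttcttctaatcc
Mgst1 (chr6:138140455-138140495, plus strand): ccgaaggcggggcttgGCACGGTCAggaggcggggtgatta
Prdx1 (chr4:116685450-116685490, plus strand): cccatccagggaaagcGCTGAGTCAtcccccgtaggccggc
Txnrd1 (chr10:82859098-82859138, plus strand): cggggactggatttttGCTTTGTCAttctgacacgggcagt
The other matches were in Txndc5, Txndc11 and Txndc2. As deposited, 4 of the 9 members had a counting interval above no change (Gstm5, Gsta3, Mgst1 and Prdx1), 2 below it (Txndc5 and Txndc11) and 3 across it, beside 21 above and 6 below among the 42 measured members. None of the 4 stayed above it after TPM scaling. A match is a run of letters and does not show that the factor binds there.

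The wider pathway was read from lists of genes outside the member rule. Their counts stand beside those of all 13084 genes, of which 24.6% had an interval above no change and 17.6% below as deposited, and 7.88% above and 48.4% below after TPM scaling. The medians of all genes were 0.02 and −0.15. Of 19 genes of glutathione synthesis and recycling, 12 had a counting interval above no change and 0 below as deposited (median log2 ratio 0.21), and 3 above and 5 below after TPM scaling (median 0.01). The gamma-glutamyl transferase Ggt1, which breaks down glutathione outside cells, was at 30.6 and 49.1 FPKM, a ratio of 1.61, and its relative Ggt7 at 7.46 and 12.1 FPKM. At the other end, Ggt5 was at 3.19 and 2.69 FPKM and Chac2 at 3.38 and 3.03 FPKM.

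Of 23 measured NRF2 regulators and targets outside the rule, 13 had an interval above no change and 2 below as deposited (median 0.11), against 3 and 10 after TPM scaling (median −0.07). The lists overlap, so their counts are not separate. Gclc, Gclm, Slc7a11 and G6pdx also belong to the glutathione synthesis list, and Srxn1 to the list that follows. The ferritin gene Ftl1 was at 289 and 418 FPKM, a ratio of 1.44, and Gclc, which encodes the catalytic subunit of the first enzyme of glutathione synthesis, at 16.1 and 21.8 FPKM, a ratio of 1.35. Hmox1, the heme oxygenase gene and a well-known NRF2 target, went the other way, at 19.5 and 12.2 FPKM with a ratio of 0.625, and Akr1b8 was at 3.39 and 2.61 FPKM. The list therefore held members with ratios on both sides.

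Of 12 glutaredoxins, sulfiredoxin and methionine sulfoxide reductases, 5 had an interval above no change and 1 below as deposited (median 0.13, and −0.06 after TPM scaling), where 24.6% and 17.6% of all genes did. Msra, which repairs oxidised methionine, was at 5.26 and 7.24 FPKM and Msrb2 at 4.15 and 5.58 FPKM. Glrx, a glutaredoxin, was at 5.11 and 4.40 FPKM and Msrb3 at 23.2 and 23.1 FPKM. The cytosolic superoxide dismutase Sod1 was at 45.1 and 52.6 FPKM, Sod2 at 9.33 and 10.2 FPKM, Sod3 at 12.9 and 12.7 FPKM and catalase, Cat, at 21.2 and 19.9 FPKM.

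Relatives of the transferases that the rule leaves out, 10 of them measured, had a median of −0.06 as deposited and −0.22 after TPM scaling, with 1 interval above no change and 2 below as deposited. Clic5 was at 0.80 and 1.34 FPKM and Clic1 at 59.2 and 62.9 FPKM. Alox5ap, needed for leukotriene synthesis, was at 3.78 and 2.71 FPKM and Mars at 19.8 and 17.0 FPKM. Of 17 protein disulfide isomerases and related oxidases, 4 had an interval above no change and 2 below as deposited (median −0.0038, and −0.20 after TPM scaling), where 24.6% and 17.6% of all genes did. The sulfhydryl oxidase genes Qsox1 (16.0 and 23.0 FPKM) and Qsox2 (25.3 and 33.0 FPKM) had the highest log2 ratios of that list. Erp29 (17.0 and 15.2 FPKM) and Ero1lb (11.2 and 10.1 FPKM) had the lowest log2 ratios.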

How the data were processed

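The authors deposited 1 FPKM value per gene for each of 2 libraries, with gene length, position and biotype, per the file headers. HISAT2 2.0.5 and, with no role, the builds mm10 and hg38 are listed in the submitters' processing notes. No source used here names the counting program. Whole fragments were recovered by dividing FPKM times length by the value of 1 fragment in each library; 100% of values above 0 came out within 0.01 of a whole number. Ratios have exact Clopper-Pearson 95% intervals (SciPy 1.17.1), and class sums have approximate intervals from the fragments' Poisson variance. Since no molecular identifiers are named for the reads, intervals and the limit of 3 fragments for a value of 0 cover counting error only. The recovery and the intervals were tested on simulated data.

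No test between genotypes was run, since each had 1 library. Members and lists were chosen with earlier results of these data known. Members with a mean of at least 1 FPKM could be named, those under it by count or as testis forms. From each pathway list the genes with the 2 highest and 2 lowest log2 ratios were given with their values. Alternatives were pseudocounts of 0.1 and 5 FPKM, other filters and 2 rescalings. All 49 members occurred in GENCODE M21, 43 with the same coordinates. Read sharing was computed over stretches of 50 bases of its transcripts. Protein sequences were not used here.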

Additional observations from a re-analysis of the deposited data

Results flagged for a closer look

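Outside the protein-coding genes, 1 of 4 pseudogene entries with a matching symbol had fragments, a signal in data that the comparisons above do not use. Gstm2-ps1, a processed pseudogene, had 5.59 FPKM (52 fragments) in WT and 5.75 FPKM (54 fragments) in KO, a ratio of 1.03 (counting interval 0.690 to 1.53). It shares 50-base stretches with Gstm1, 18.9% of whose stretches occur in another gene. The part of misplaced reads in its value was not tested.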

How the results depend on the processing

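Members with a counting interval above no change numbered 21 as deposited, 6 after TPM scaling and 9 after rescaling without the 100 most abundant genes, and those below it 6, 15 and 9. Of all genes, 24.6%, 7.88% and 13.6% were above it and 17.6%, 48.4% and 31.9% below. The median log2 ratio of measured members went from 0.13 to −0.070 after TPM scaling and stayed at 0.02 to 0.13 under the other settings. After TPM scaling, 17 log2 ratios turned negative. Of these members, 8 had a counting interval that held no change as deposited, and 9 had one above it: Gstm1 (−0.0013), Gstm2 (−0.10), Gstm5 (−0.033), Prdx1 (−0.084), Prdx2 (−0.089), Prdx3 (−0.056), Prdx5 (−0.084), Txndc16 (−0.046) and Txnl1 (−0.044). Without the 100 most abundant genes 7 turned negative, of which only Gstm2 (−0.0080) had an interval above no change as deposited. With a pseudocount of 0.1 FPKM, 1 member (Gsto1) was at least 2-fold higher. The counts of members at least 2-fold higher or lower were 0 under every other setting.

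Class ratios that crossed 1 after TPM scaling were 0.927 for mu, 0.962 for peroxiredoxins, 0.972 for theta, 0.918 for thioredoxins, 0.887 for thioredoxin domain genes (1.02 as deposited) and 0.907 for thioredoxin-like genes (1.04 as deposited), where the deposited intervals of the last 2 held no change. Other values were 1.18 for alpha, 1.04 for microsomal, 1.10 for pi, 0.801 for reductases and 0.860 for Txnip. Without the 100 most abundant genes, 0.992 for mu, 0.982 for thioredoxins, 0.948 for thioredoxin domain genes and 0.970 for thioredoxin-like genes crossed 1, and 1.11 for microsomal, 1.03 for peroxiredoxins, 0.857 for reductases and 0.920 for Txnip did not. Without the most abundant member, 0.711 for omega, 0.875 for pi and 0.844 for thioredoxin-like genes crossed 1, and 1.19 for alpha, 1.10 for microsomal, 1.10 for mu, 1.09 for thioredoxin domain genes, 0.794 for reductases and 1.22 for thioredoxins did not. These follow from the construction of each setting.

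No paired analysis was possible because each genotype had 1 library. Depth limits the members under 1 FPKM, which had at most 12 fragments in either library.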
